A study of Rattus norvegicus with 5 samples.

Results

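Connexins and pannexins were followed in the parietal cortex of young rats with kaolin-induced hydrocephalus. The members were all non-control probes whose name, or current or older rat symbol, belongs to Gja1, Gja4, Gjb1, Gjb2, Gjb6, Gjc1, Gjd2, Panx1 or Panx2, which gave 12 of the 41012 probes on the array and at least 1 probe for each of the 9 genes, out of 15174 genes with a RefSeq symbol. One group of pups received an injection of kaolin on postnatal day 1, a clay used to obstruct the drainage of cerebrospinal fluid, and the control group received saline on the same day. Cortex was taken on postnatal day 22, which was day 21 after the injection, and all pups stayed with the dam until then. Total RNA was read on 5 two-colour Agilent arrays, and on each of them 1 sample of kaolin cortex (labelled with Cy3) met 1 of saline cortex (labelled with Cy5). The dyes were never exchanged, so dye and treatment cannot be told apart. The labels name no strain and no number of animals per sample, and p-values therefore measure the spread between arrays.

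Connexins are membrane proteins that form hexameric channels, and channels of neighbouring cells dock into gap junctions that pass ions and small molecules. Pannexins form large-pore channels of a single membrane that release ATP and do not usually dock. In the cortex, astrocytes are coupled into a network by the products of Gja1 and Gjb6, with Gjb2 also found in astrocytes and in the meninges, oligodendrocytes make Gjb1, vessels make Gja4, and electrical synapses between neurons use Gjd2.

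The printed windows show the bases before the start of the 2 main astrocyte connexin genes, which are described first. They are the 250 bases before the RefSeq start (GRCr8), written 5′ to 3′ on the strand of the gene, with motif matches in capitals.
Gja1, chr20:36302314-36302563, plus strand: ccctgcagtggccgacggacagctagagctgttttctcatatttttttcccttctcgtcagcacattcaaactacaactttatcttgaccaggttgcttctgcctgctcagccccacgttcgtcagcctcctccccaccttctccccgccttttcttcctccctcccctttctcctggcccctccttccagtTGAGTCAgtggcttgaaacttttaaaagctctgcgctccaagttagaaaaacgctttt
Gjb6, chr15:35410139-35410388, minus strand: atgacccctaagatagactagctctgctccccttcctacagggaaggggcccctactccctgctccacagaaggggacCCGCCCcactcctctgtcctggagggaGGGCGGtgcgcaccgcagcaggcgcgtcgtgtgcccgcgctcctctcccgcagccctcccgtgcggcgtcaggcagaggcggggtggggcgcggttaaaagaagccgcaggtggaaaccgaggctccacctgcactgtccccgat
The capitals in Gja1 are a match to the AP-1 motif TGANTCA, which was found in 1 of the 8 member genes that have a window in the table and in 6.34% of 33469 windows of all genes. It lies from base -58 to base -52, counted back from the base just before the start. The capitals in Gjb6 are matches to the GC box GGGCGG, which was found in 6 of the 8 member genes (Gja4, Gjb2, Gjb6, Gjd2, Panx1 and Panx2). Counted by window, it was found in 7 of 9 member windows and in 30.5% of all windows. Both strands were searched, no match overlapped one to another motif, and a second Gjb6 start in the table also had a GC box. The CCAAT motif was found in 2 of 9 member windows (Gjb1 and Gjd2) and in 34.0% of all windows. Neither TATAAA nor TGACGTCA was found in a member window (12.9% and 1.59% of all windows). A match is a description of the letters and not a measured binding site.

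The count of probes well above background ran from 27951 to 29380 for kaolin and from 27368 to 28927 for saline cortex, with no saturated spot. Precision is limited by having 5 arrays. Only probes whose kaolin or saline signal was well above background on 3 or more arrays were tested, which held for 29109 probes and for 11 of the 12 member probes. Replicates 1 to 4 lay on 1 slide and replicate 5 on another. The log2 ratios of replicate 2 ran against those of replicate 1 over the tested probes (r = -0.37), while replicates 3 and 4 ran together (r = 0.83). Tissue markers were not alike on the arrays either. Reactive astrocyte markers (9 of 10 tested positive in the mean) had median log2 ratios of -0.09, -0.05, 2.48, 2.23 and 2.58 from replicate 1 to replicate 5, and a summed level of 7439 to 77920 in kaolin and 7168 to 10399 in saline samples. Microglial markers (13 of 13 positive) had medians of -0.01, 0.05, 2.22, 1.66 and 2.35, and a summed level of 35427 to 141010 in kaolin and 31985 to 35562 in saline samples.

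The question put to the connexins and pannexins was whether their RNA differed between kaolin and saline cortex. In limma, with Benjamini-Hochberg adjustment over all tested probes, 0 of 11 tested member probes passed an adjusted p of 0.05, against 0% of all tested probes in either direction (0 of 29109, smallest adjusted p = 0.243). At an unadjusted p of 0.05, 1 member probe was past the threshold, a Gjc1 probe that was higher in kaolin, while 8.82% of all tested probes were past it upward and 9.32% downward (5280 probes in all). With only 11 member probes, neither 1 of 11 upward nor 0 of 11 downward can be told apart from these background shares. The members had positive means on 5 probes and negative means on 6, against 49.2% and 50.8% of all tested probes, with a median of -0.01 against -0.0034 over all tested probes. Their median absolute mean was 0.15 against 0.12. No tested member probe had the same sign on all 5 arrays, as 6.22% of tested probes had upward and 6.64% downward. With 5 arrays an exact two-sided sign-flip permutation test cannot go below p = 0.0625.

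**Figure D1:**
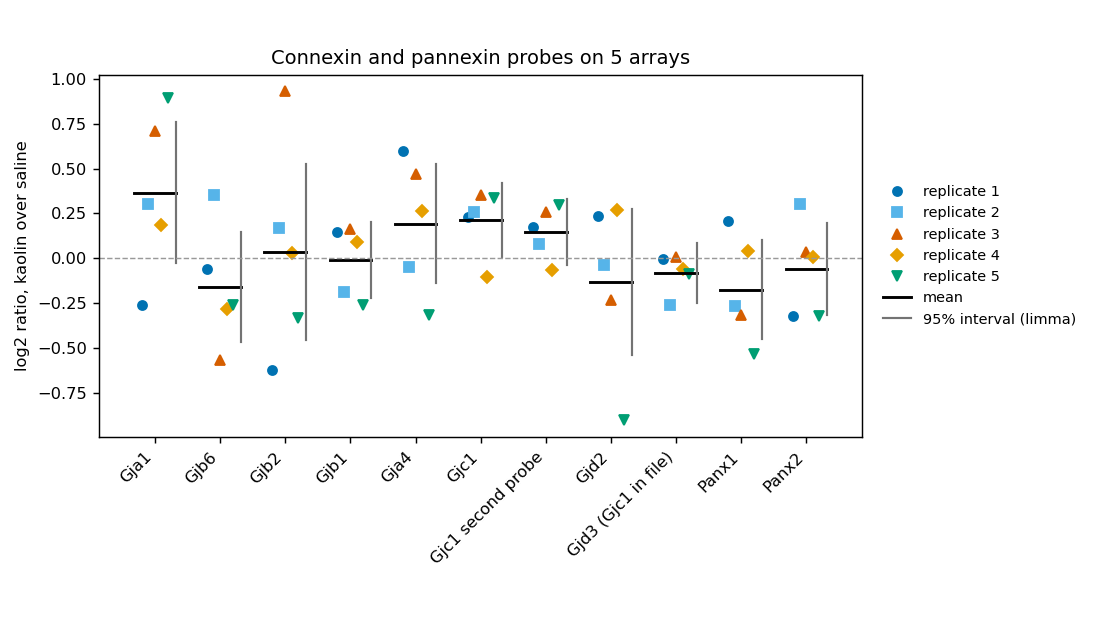
Log2 ratio of kaolin over saline (vertical axis) for the 11 tested connexin and pannexin probes (horizontal axis), with 1 marker per array, the mean as a black bar and the 95% interval from limma as a grey line. Gja1 spreads from -0.26 to 0.89 and only the interval of Gjc1, from 0.01 to 0.42, leaves out 0 before adjustment.

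Gja1 encodes connexin 43, the main gap junction protein of astrocytes. Its log2 level in kaolin cortex was 13.25, 13.47, 13.99, 13.63 and 14.40 on replicates 1 to 5, and in saline cortex 13.51, 13.17, 13.28, 13.44 and 13.51. The kaolin levels of replicates 3, 4 and 5 lay above every saline level, and the groups overlapped through replicates 1 and 2. The log2 ratios were -0.26, 0.30, 0.71, 0.19 and 0.89, a mean of 0.37 ± 0.45 (SD, n = 5) or 1.29-fold, with a 95% interval from -0.02 to 0.76. The ratio was positive on 4 of 5 arrays and missed the threshold (limma adjusted p = 0.290, unadjusted p = 0.0623; exact sign-flip permutation p = 0.188). Leaving out single replicates gave means from 0.23 without replicate 5 (limma adjusted p = 0.493) to 0.52 without replicate 1 (limma adjusted p = 0.281). Without the intensity-dependent loess step, with each array's ratios only centred on their median, the mean was 0.08. Over the brightest 5% of tested probes the median of the mean log2 ratios was 0.01 with loess and -0.31 with median centring, and over all tested probes it was -0.0034 and -0.10.

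The Gja1 probe is printed 10 times on each array, so its spread between spots could be set against its spread between arrays. The spread between arrays also holds differences between samples. The probe covers bases 35422026 to 35422085 of chromosome 20 in the rn4 build that the array uses. The SD between spots was 0.02, 0.03, 0.03, 0.04 and 0.03 on replicates 1 to 5, with 9 or 10 spots kept on each. Spots of replicate 1 ran from -0.29 to -0.23 and those of replicate 5 from 0.83 to 0.94, so that the spots of no array reached those of another. The SD between arrays was 11.9 times the largest SD between spots.

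**Figure D2:**
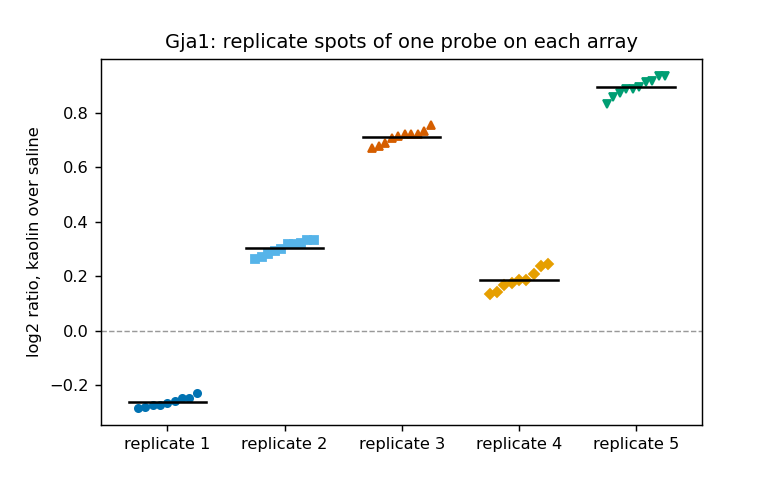
Log2 ratio of kaolin over saline (vertical axis) of every kept spot of the Gja1 probe, by array (horizontal axis), with the mean of each array as a bar. Spots of one array lie within a narrow band, and the 5 bands run from -0.29 to 0.94 without touching.

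A further Gja1 probe, whose start lies 205 bases from that of the first on the same chromosome (35421821 to 35421880), was not well above background in either channel of any array. Its raw kaolin signal ran from 23.3 to 26.6 over a local background of 20.5 to 24.5, so it gives no ratio for Gja1 and was not tested.

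Gjb6 encodes connexin 30, the other main astrocyte connexin. Its log2 level was 13.001, 13.12, 12.37, 12.69 and 12.81 in kaolin cortex and 13.06, 12.76, 12.93, 12.97 and 13.07 in saline cortex. The lowest levels were those of kaolin replicates 3 and 4, and the highest was that of kaolin replicate 2, so the groups overlapped. The log2 ratios were -0.06, 0.35, -0.57, -0.28 and -0.26, a mean of -0.16 ± 0.34 (SD, n = 5), negative on 4 of 5 arrays (limma adjusted p = 0.504; 95% interval from -0.47 to 0.15; exact sign-flip permutation p = 0.438). With median centring in place of loess the mean was -0.41 (adjusted p = 0.118), without replicate 2 it was -0.29 (adjusted p = 0.110), and without replicate 3 it was -0.06 (adjusted p = 0.894).

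The ratios of both astrocyte connexins were also set against each other on each array. The Gja1 ratio less the Gjb6 ratio was -0.21, -0.05, 1.28, 0.47 and 1.15 on the 5 arrays, a mean of 0.53 ± 0.68 (SD, n = 5). This difference was chosen after its values were seen and was not tested. Its mean ran from 0.49 to 0.53 over 7 ways of making the ratios. A shift shared by all probes of an array cancels in such a difference, so ways that differ by such a shift could not move it. Loess depends on intensity and is not such a shift. Replacing it with median centring lowered both means, for Gja1 from 0.37 to 0.08 and for Gjb6 from -0.16 to -0.41. The 7 ways do not bear on the spread of the difference between arrays. Replicates 3, 4 and 5, which had the positive differences, were those on which reactive astrocyte markers were high. General astrocyte markers had medians of -0.32, 0.18, -0.0014, -0.05 and 0.21 on replicates 1 to 5, with 5 of 14 tested markers positive. Their summed level ran from 199870 to 285359 in kaolin and from 260924 to 314830 in saline samples, and all 14 markers on the list could be tested. Ependymal cells, which also carry Gja1, had marker medians of 0.34, -0.24, 0.80, 1.1 and 0.52, with 6 of 7 tested markers positive and a summed level of 1945 to 5712 in kaolin and 2232 to 2841 in saline samples. Whether these markers take part in the connexin values was not tested, and in whole tissue a change in the number of cells and in RNA per cell cannot be told apart.

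Gjb2 encodes connexin 26 and is the neighbour of Gjb6 on chromosome 15, their probes lying 24041 bases apart in rn4 (36153667 to 36153726 and 36177768 to 36177827). Its log2 ratios were -0.62, 0.17, 0.93, 0.03 and -0.33, a mean of 0.03 ± 0.59 (SD, n = 5; limma adjusted p = 0.938). It had the widest range of all members, 1.55 log2 units, and its sign turned without replicate 3 and with median centring. In log2 levels, the kaolin samples ran from 10.68 to 12.04 and the saline samples from 10.86 to 11.55, with kaolin replicates 1 and 3 at its ends. On replicate 3, Gjb2 was the highest member and its neighbour Gjb6 the lowest. Meningeal markers had medians of -0.49, -0.15, 0.84, 0.11 and 0.58 on replicates 1 to 5, with 12 of 12 tested markers positive in the mean, and a summed level from 22330 to 60496 in kaolin and from 27758 to 37210 in saline samples. Their part in the Gjb2 values was not tested.

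**Figure D3:**
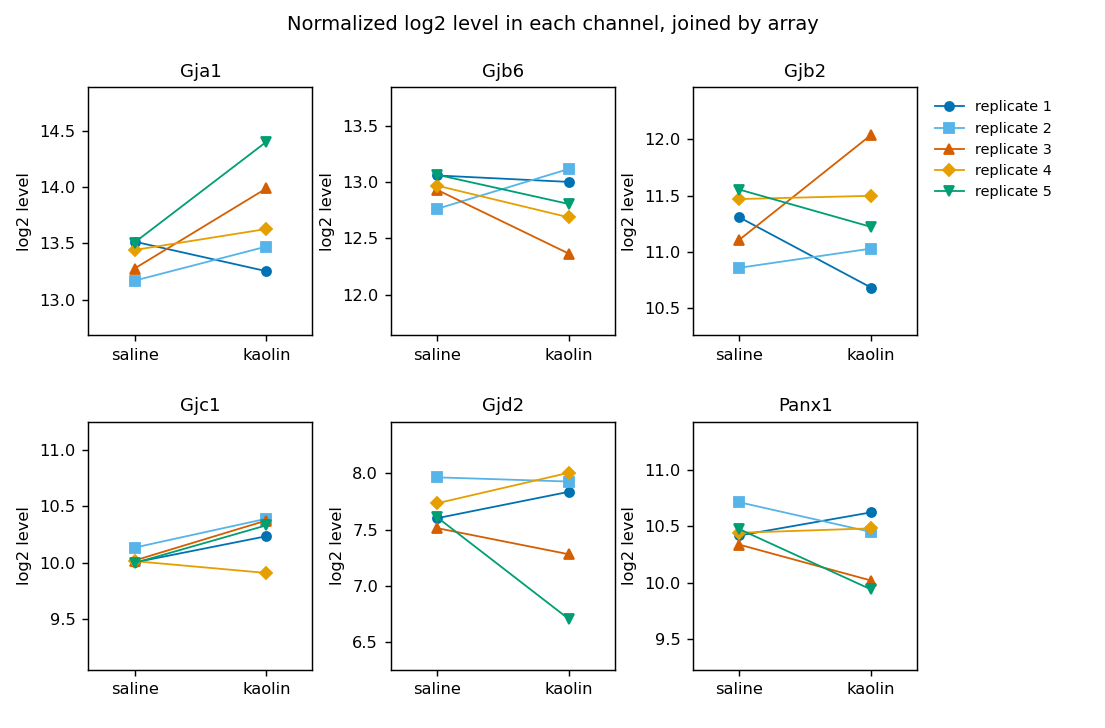
Normalized log2 level (vertical axis, 2.2 log2 units in each panel) of 6 members in the saline and kaolin channel, joined by array. Gja1 kaolin levels fan out from 13.25 to 14.40 over saline levels of 13.17 to 13.51, and Gjc1 is higher in kaolin on 4 of 5 arrays.

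Gjb1 encodes connexin 32, the gap junction protein of oligodendrocytes (probe on rn4 chromosome X, bases 89455686 to 89455745). On replicates 1 to 5 the log2 ratios were 0.14, -0.19, 0.16, 0.09 and -0.26, a mean of -0.01 ± 0.20 (SD, n = 5; limma adjusted p = 0.960). The 95% interval ran from -0.22 to 0.20, and the sign of so small a mean turned under 9 of 16 alternatives. Its log2 level ran from 7.20 to 7.80 in kaolin and from 7.46 to 7.97 in saline cortex, and it was well above background in both channels on all 5 arrays. Oligodendrocyte markers had medians of 0.25, 0.17, 0.07, 0.24 and -0.62, and like Gjb1 were lowest on replicate 5. Of 12 tested markers 8 were positive in the mean, and their summed level ran from 170546 to 274407 in kaolin and from 262367 to 304237 in saline samples; their part in Gjb1 was not tested.

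Gja4 encodes connexin 37, found in the endothelium of arteries (probe on rn4 chromosome 5, bases 146755345 to 146755404). The 5 arrays gave log2 ratios of 0.60, -0.05, 0.47, 0.26 and -0.31, a mean of 0.19 ± 0.37 (SD, n = 5; limma adjusted p = 0.463; 95% interval from -0.14 to 0.52). Its log2 levels were 9.33, 9.16, 9.22, 9.21 and 8.69 in kaolin and 8.74, 9.21, 8.75, 8.95 and 9.005 in saline cortex. Replicate 5 held the lowest of these 10 levels, and without it, which is also the value within the slide of replicates 1 to 4, the mean was 0.32 (adjusted p = 0.366). It was 0.09 without replicate 1, 0.12 without replicate 3 and 0.05 with median centring. Endothelial and mural markers had medians of -0.11, 0.05, 0.21, 0.0090 and -0.10 with 7 of 11 tested markers positive, and a summed level of 23513 to 30721 in kaolin and 25169 to 32967 in saline samples; their part in Gja4 was not tested.

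Gjc1 encodes connexin 45 and was named Gja7 in the array files. Of all members it had the smallest p. The log2 level of its brighter probe was 10.24, 10.39, 10.38, 9.91 and 10.33 in kaolin and 10.004, 10.14, 10.02, 10.02 and 9.999 in saline cortex. On 4 arrays the kaolin level lay above every saline level, and on replicate 4 it lay below them all. The log2 ratios were 0.23, 0.26, 0.36, -0.10 and 0.33, a mean of 0.21 ± 0.19 (SD, n = 5) or 1.16-fold (limma adjusted p = 0.264, unadjusted p = 0.0424; exact sign-flip permutation p = 0.125; 95% interval from 0.01 to 0.42). A second probe of the same gene gave 0.17, 0.08, 0.26, -0.07 and 0.29, a mean of 0.15 ± 0.15 (limma adjusted p = 0.334). The probes gave the same sign on every array, and they differed by 0.07 ± 0.08 (SD, n = 5). With median centring the brighter probe was at 0.04 and the second at -0.01, while the median over all tested probes was -0.10 in those values.

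Another probe bore the name Gjc1 in the files and so fell under the rule, but its transcript record is matched to the gene now called Gjd3. Its log2 ratios were -0.0046, -0.26, 0.0071, -0.06 and -0.09, a mean of -0.08 ± 0.11 (SD, n = 5; limma adjusted p = 0.531). It therefore does not speak for Gjc1, and its values had the smallest SD of the members tested.

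Gjd2 encodes connexin 36, the channel of electrical synapses (probe on rn4 chromosome 3, bases 99861096 to 99861155). The log2 ratios of this probe were 0.23, -0.04, -0.23, 0.27 and -0.90, a mean of -0.13 ± 0.48 (SD, n = 5; limma adjusted p = 0.683; 95% interval from -0.54 to 0.27). The log2 level was 7.84, 7.93, 7.28, 8.01 and 6.71 in kaolin and 7.60, 7.97, 7.52, 7.74 and 7.61 in saline cortex. Kaolin replicate 5 was the lowest sample, and without it the mean was 0.06. The raw kaolin signal there was dim, 62 over a local background of 19, against 100 to 189 on the other arrays. It was read from 1 spot per array, although the probe was well above background in both channels on all 5 arrays. Neuronal markers had medians of -0.28, 0.17, -0.42, -0.24 and -0.29, with 15 of 16 tested markers negative, and a summed level from 170660 to 259203 in kaolin and from 218214 to 261775 in saline samples. Their part in the Gjd2 values was not tested.

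**Figure D4:**
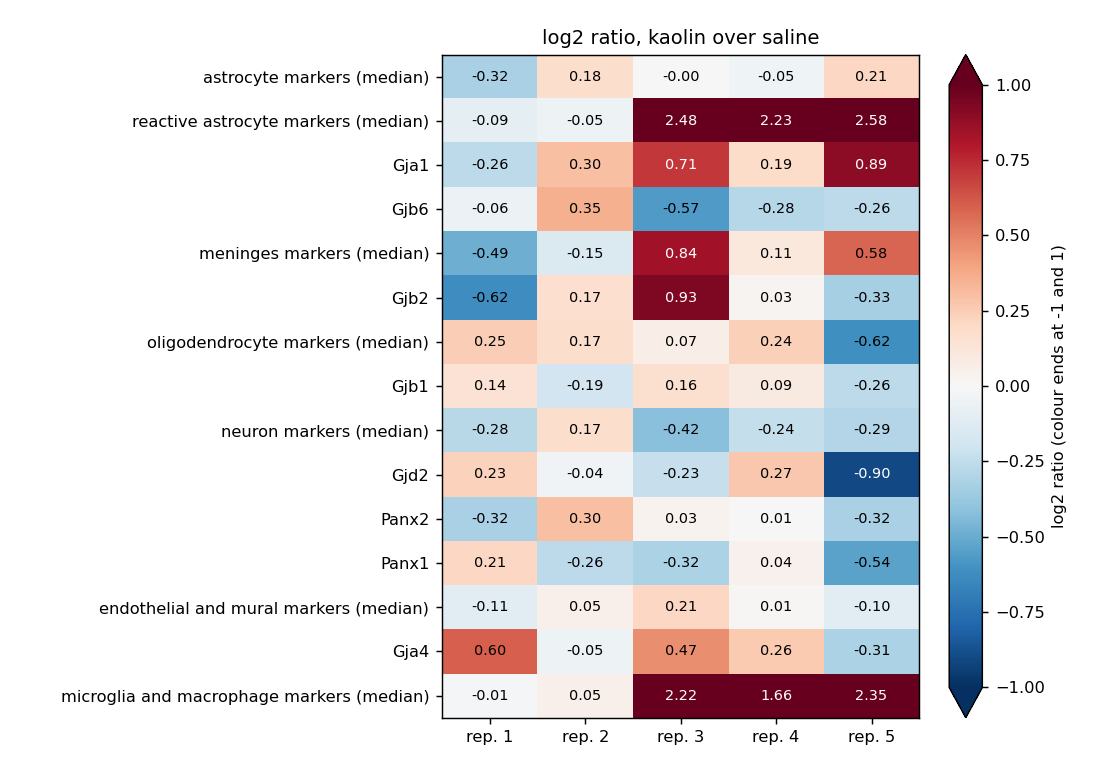
Log2 ratio of kaolin over saline on each of the 5 arrays (columns) for 8 members and for the median of 7 sets of cell type markers (rows), as printed numbers and as colour that stops at -1 and 1. Reactive astrocyte and microglial medians are above 1.6 on replicates 3, 4 and 5 only, while none of the 8 members stays on one side of 0 on all arrays.

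Panx1 encodes a pannexin channel that releases ATP (probe on rn4 chromosome 8, bases 11810732 to 11810791). From replicate 1 to 5 the log2 ratios were 0.21, -0.26, -0.32, 0.04 and -0.54, a mean of -0.17 ± 0.30 (SD, n = 5; limma adjusted p = 0.428; 95% interval from -0.45 to 0.10). Its log2 levels were 10.63, 10.45, 10.02, 10.48 and 9.94 in kaolin and 10.42, 10.72, 10.34, 10.44 and 10.48 in saline cortex. Kaolin replicates 3 and 5 lay below every saline sample, and the other kaolin levels were among them or next to them. With median centring the mean was -0.35 (adjusted p = 0.111), without replicate 1 it was -0.27, and within the slide of replicates 1 to 4 it was -0.08. Panx2, a pannexin of neurons (probe on rn4 chromosome 7, bases 127373871 to 127373930), had log2 ratios of -0.32, 0.30, 0.03, 0.0074 and -0.32, a mean of -0.06 ± 0.27 (SD, n = 5; limma adjusted p = 0.777). Its levels ran from 11.36 to 11.65 in kaolin and from 11.28 to 11.68 in saline cortex, and its sign turned without replicate 1 or without replicate 5.

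Each slide held both treatments. Within the slide of replicates 1 to 4 the mean of Gja1 was 0.23 and that of Gjc1 was 0.18, and with the slide as a random block they were 0.34 and 0.21. Replicate 5, alone on its slide, had the highest Gja1 and the lowest Gjb1, Gja4, Gjd2, Panx1 and Panx2 ratios of the 5 arrays. For Panx2 it was nearly level with replicate 1 (-0.3235 and -0.3210).

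The genes whose 5 ratios lay nearest to those of Gja1, which was also the member with the largest absolute mean, were sought among 12040 tested genes by the root mean square difference over the 5 arrays. They were Jun, a transcription factor gene (difference 0.09; ratios of -0.36, 0.28, 0.56, 0.11 and 0.92), Dcakd (0.09; -0.25, 0.30, 0.62, 0.32 and 0.77) and Adam15, a membrane protease gene (0.09; -0.18, 0.26, 0.70, 0.36 and 0.95).

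Of 15 other connexin and pannexin genes looked for, 13 had a probe and 8 were tested, among them Gjd3. In the limma fit 0 of the 8 passed the adjusted threshold, as did 0 of all 29109 tested probes. Of the 8, 4 were higher and 4 lower, with a median of -0.01. An unadjusted p under 0.05 in limma was reached by 2 upward (Gja5 and Gjd4) and 0 downward, beside 8.82% and 9.32% of all tested probes. Gja5, a connexin of arterial endothelium, had ratios of 0.03, 0.16, 1.11, 1.11 and 0.81, a mean of 0.64 ± 0.52 (SD, n = 5; limma adjusted p = 0.243), and Gjd4 had 0.16, -0.19, 0.93, 0.70 and 1.27, a mean of 0.57 ± 0.59 (limma adjusted p = 0.247). Both were higher on replicates 3, 4 and 5 than on replicates 1 and 2. The Gja5 ratio was positive on 5 of 5 arrays, as were those of 6.22% of all tested probes. Gjc3, an oligodendrocyte connexin gene, stood at -0.08 ± 0.22, with the Gjd3 probe at the lower end.

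Genes that work with the channels were given by 3 lists, in which 0 genes passed the adjusted threshold in limma, as did 0 of all 29109 tested probes. For every list, the shares of all tested probes to read beside it are 8.82% upward and 9.32% downward at an unadjusted p under 0.05. By sign of the mean they are 49.2% higher and 50.8% lower. Among 11 tested partners and scaffold genes, 7 were higher and 4 lower, with a median of 0.17, and 4 had an unadjusted p under 0.05 upward and 1 downward. Ocln, of tight junctions, stood at 0.32 ± 0.21, while Cdh2, an adhesion protein, stood at -0.48 ± 0.54 and Dbn1, an actin-binding partner of connexin 43, at -0.14 ± 0.28 (SD, n = 5). Among 12 kinases and phosphatases, 7 were higher and 5 lower, with a median of 0.07, and 3 had an unadjusted p under 0.05 upward and 1 downward. The kinase genes Mapk3 (0.39 ± 0.31) and Prkcd (0.30 ± 0.42) had the highest means and Camk2a (-0.33 ± 0.40) and Prkca (-0.28 ± 0.22) the lowest. Among 13 genes of ATP release and purine signalling, 11 were higher and 2 lower, with a median of 0.21, and 7 had an unadjusted p under 0.05 upward and 0 downward, beside 8.82% and 9.32% of all tested probes. Casp1, the inflammasome protease, stood at 0.78 ± 0.63 and Il1b, its substrate, at 0.53 ± 0.53, while Adora2a, an adenosine receptor, stood at -0.15 ± 0.28 and P2ry1, a nucleotide receptor, at -0.05 ± 0.15. Both Casp1 and Il1b were higher on replicates 3, 4 and 5, as the microglial markers were, and the part of those cells was not tested.

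The SD over the 5 samples was larger in kaolin on 9 of 11 tested member probes, against 69.8% of all tested probes. For Gja1 the SD of the log2 level was 0.45 in kaolin and 0.15 in saline samples, and for Gjb6 0.29 and 0.12. For Gjd2 it was 0.55 and 0.17, with the dim kaolin value of replicate 5 included. The exceptions were Gjd3 (0.12 and 0.20) and Panx2 (0.13 and 0.17). Over all tested probes the median SD was 0.17 in kaolin and 0.13 in saline samples.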

How the data were processed

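Total RNA of parietal cortex was hybridized to 5 two-colour Agilent rat arrays. Per the file headers, the authors read each array with Agilent Feature Extraction 10.1.1.1, and its output holds raw spot and background intensity values, processed intensity values (background-subtracted and dye-normalized) and the log10 ratio of Cy5 over Cy3. Other deposited columns hold spot flags. The deposited series matrix holds log2 ratios. Its direction, kaolin over saline, was settled against the scanner ratios (r from -1.00 to -0.978); its scale was that of log2, and how its columns were centred stays unknown (medians 0.02, -0.05, -0.02, 0.09 and -0.10).

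Outlier spots (86 to 147 per array) were left out. Mean signals with local background were corrected with normexp (offset 50), normalized by loess within arrays with control spots at no weight, and averaged per probe. Ratios are log2 kaolin over saline, fitted against 0 with lmFit and eBayes in limma 3.58.1 (R 4.3.3), two-sided, adjusted by Benjamini-Hochberg over 29109 probes. The fit was tested on simulated data. Levels are log2 per channel after an additional quantile step on the average intensities. Probes took current RefSeq symbols by accession (10768 probes), another listed accession (286), symbol (4993) or older symbol (3339), and 21626 kept the file's name; promoter windows are RefSeq's, on GRCr8. Probe positions are the files', on rn4, whose gene models were not used. A gene with several probes stands for its brightest.

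All members are named, with the 2 highest and 2 lowest genes of each pathway list and the 3 genes nearest to Gja1, except 1 list gene that is not reported here; P2rx4 and the difference of Gja1 and Gjb6 were chosen after their values were seen. Members and lists were chosen with earlier results of these data known. Replicate numbers name arrays. The choroid plexus list (8 tested genes) had a median log2 ratio of -0.45.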

Additional observations from a re-analysis of the deposited data

Results flagged for a closer look

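The log2 ratio of the brighter Gjc1 probe was flagged because 1 array stood far from the others. The gap of replicate 4 (-0.10) to its nearest neighbour, replicate 1 (0.23), was 0.733 of the whole range. Of 11 member probes tested in this way it was the only one, and chance flags about 1 in 20. The second Gjc1 probe was also lowest on replicate 4, at -0.07, with a gap of 0.398 of its range.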

How the results depend on the processing

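Member probes past the adjusted threshold were 0 in every alternative. Over all tested probes the counts were 0 higher and 0 lower as reported. They were 1576 higher and 1920 lower with array weights, 0 and 22 with median centring, and 245 and 244 with the sign of replicate 2 turned, an alternative chosen after seeing the data, like the slide as a random block. Leaving out single replicates gave 0 to 716 higher and 0 to 820 lower, with the highest counts without replicate 2 and 1 lower probe without replicate 1. Of 178 member values, 160 kept their sign and 18 turned, and none changed its side of the threshold. Gja4, Gjb6 and Panx1 kept their sign in all alternatives run, as did the brighter Gjc1 probe. Gja1 did so except on its dim probe (-0.031), which is at background. Gjb1 turned to 0.032 without background subtraction, 0.079 with processed signals, 0.068 with the software's log ratios and with the authors' matrix, 0.042 with array weights, 0.0038 with the slide block and 0.065 with replicate 2 turned, and ran from -0.053 to 0.053 when single replicates were left out (positive without replicate 2 or 5). Gjb2 turned to -0.17 with median centring and -0.033 with replicate 2 turned, and ran from -0.19 without replicate 3 to 0.20. The second Gjc1 probe turned to -0.014 with median centring and Gjd3 to 0.023 with replicate 2 turned. Leaving out single replicates gave -0.23 to 0.059 for Gjd2 (positive without replicate 5) and -0.15 to 0.0058 for Panx2 (positive without replicate 1 or 5). The cause of these turns was not tested. No array correlated under -0.3 with each of the others, so the alternative planned for such an array was not run. The fit of ratios within arrays already pairs the samples of an array, so no further replicate block could be added. Signal over background leaves the dim Gja1 probe without a usable ratio.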

Other observations

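P2rx4, a receptor channel opened by ATP, was singled out among the purine genes after its values were seen. Its log2 ratios were 0.25, 0.36, 0.45, 0.37 and 0.40 on replicates 1 to 5, a mean of 0.37 ± 0.07 (SD, n = 5; limma adjusted p = 0.243, unadjusted p = 0.000734). It was positive on 5 of 5 arrays, as were 3 of the 13 tested genes of its list in all and 6.22% of all tested probes. The dyes were never exchanged, so a steady effect of the dye on this probe cannot be told apart from treatment. P2rx7 did not pass the filter on dim probes and was not tested.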
